A study of Homo sapiens with 23 samples.

Results

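Long-range contacts of the transcription factor YY1 were examined as pairs of 5 kb genome bins that were joined in YY1 HiChIP of NCCIT cells. A bin pair was taken as long-range when the starts of its anchors lay at least 200 kb apart on 1 chromosome, and when neither anchor overlapped an SVA of the study's list. Of 4048169 bin pairs in the deposited table, 2529712 met the rule, and a further 5994 pairs of the same span had an anchor on an SVA and were left out. Each bin pair in the table has at least 1 raw count in some column and most have 1 only, so a bin pair here is an observed contact and not a loop that passed a significance threshold. A raw count is called a contact below, and an anchor is any 5 kb bin that takes part in at least 1 long-range pair.

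HiChIP joins DNA ends that lie close together in the nucleus, pulls down the joined fragments with an antibody, and sequences both ends. The pull-down selects fragments with YY1 on them, so bins bound by YY1 are sampled more deeply than other bins by design. YY1 is a zinc finger protein that binds promoters and enhancers, and it is known to bridge them by pairing with a second YY1 molecule. Contacts in the nucleus become rarer with distance along the chromosome, and the cohesin complex and CTCF are known to set many of the contacts that reach over long distances.

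NCCIT is a human embryonal carcinoma line with stem-like properties. SCi-NCCITs, made from NCCIT, carry a dCas9-KRAB fusion that doxycycline induces and 2 sgRNAs to SVA transposons that also match LTR5Hs elements, expressed all the time, with both constructs inserted by piggyBac transposition and kept under puromycin and geneticin selection. The groups were SCi-NCCITs without doxycycline and SCi-NCCITs given 2 µg/mL doxycycline for 72 hours, with 3 HiChIP, 3 RNA-seq, 2 YY1, 2 H3K9me3 and 1 OCT4 ChIP-seq libraries each, plus 1 H3K9me3 library of NCCIT without dCas9-KRAB. No doxycycline-treated library lacked the sgRNAs, so the effects of the drug and of SVA repression cannot be told apart, and nothing in the labels says that replicates were separate cultures, so p-values measure the spread between these samples.

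The HiChIP table names its 6 count columns as category 1 and category 2 with replicates 1 to 3, and neither the labels nor the study ties a category to doxycycline. The columns are therefore given side by side and the categories are not compared. All HiChIP contacts numbered 740280 to 2295941 per column. Estimated counts in the RNA-seq libraries came to 14683468 in the first library without doxycycline and 31905915 to 47862394 in the other 5. Markers of embryonal carcinoma and pluripotent cells were present in every RNA-seq library, with SOX2 at 259 to 371 TPM (a level corrected for transcript length and library size) and LIN28A at 261 to 320 TPM. Of 16 markers of other cell types, 8 (CGA, CGB5, PTPRC, CD3E, NEUROD1, ALB, AFP and TTR) reached at most 0.415 TPM in any library. The others included DCX, COL1A1, COL1A2, DCN, ERVW-1 at up to 9.08 TPM, LUM at up to 9.38 TPM and the tubulin TUBB3 at 28.2 to 41.5 TPM.

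The sequences at the most connected anchors show where YY1 peaks lay and whether the letters of its known binding site stood there. The windows below reach 50 bases to each side of the strongest YY1 summit of an anchor in the first YY1 library without doxycycline, on the plus strand of hg19. Capitals mark the core letters AANATGGC of the YY1 site, or their reverse complement GCCATNTT. The first 3 are the promoter anchors with the most partners, and STK40 is a further one of the 10 most connected. The last pair are connected anchors without the canonical transcription start site (TSS) of a protein-coding gene. Windows at the other promoters overlapped a UTR, held no motif or had no summit in the anchor, and are not printed whole.
MRPL47/NDUFB5, chr3:179322451-179322551: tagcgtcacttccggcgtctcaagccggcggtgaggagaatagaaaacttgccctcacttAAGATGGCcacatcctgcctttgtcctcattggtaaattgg
HACD2, chr3:123304014-123304114: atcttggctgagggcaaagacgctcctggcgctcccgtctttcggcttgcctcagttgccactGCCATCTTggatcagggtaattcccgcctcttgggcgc
SLX4IP, chr20:10415716-10415816: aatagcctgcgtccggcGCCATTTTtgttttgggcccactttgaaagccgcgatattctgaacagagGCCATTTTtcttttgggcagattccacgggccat
STK40, chr1:36851572-36851672: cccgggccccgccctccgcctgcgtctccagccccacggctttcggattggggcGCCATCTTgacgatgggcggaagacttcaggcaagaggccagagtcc
KIF26B intron, chr1:245836313-245836413: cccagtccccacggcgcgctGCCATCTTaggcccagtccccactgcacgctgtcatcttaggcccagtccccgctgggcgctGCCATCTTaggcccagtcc
CHD6 upstream, chr20:40322124-40322224: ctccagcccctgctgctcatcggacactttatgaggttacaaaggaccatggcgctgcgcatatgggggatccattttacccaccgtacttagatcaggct

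The MRPL47/NDUFB5 window lay between 2 divergent TSSs that are 156 bases apart, its summit 75 bases upstream of MRPL47. The HACD2, SLX4IP and STK40 summits lay 164, 187 and 97 bases upstream of their TSSs, and the HACD2 window also overlapped an exon of the antisense RNA MYLK-AS1. Both copies in the SLX4IP window and both in the KIF26B intron read in the same direction, and the whole 5 kb KIF26B anchor held 13 copies against 3 in the MRPL47/NDUFB5 anchor, 4 in the HACD2 anchor and 6 in the SLX4IP anchor. At FXR1 the motif stood in gcggttccAACATGGCggagctga (chr3:180630463-180630486), in a window that holds the annotated start codon. The CHD6 upstream window had no match, which says only that these letters are not in it.

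The core motif was more frequent at summits in anchors with 25 partners or more, and increasingly so, than at the others. Over all 56110 YY1 peaks of that library, 25.19% of the summit windows held it, against 2.046% of windows of the same length 2 kb away. At summits in bins with no partner the share was 21.06%, with 1 to 4 partners 22.38%, with 5 to 24 partners 20.54%, with 25 to 99 partners 26.7%, with 100 to 199 partners 34.81%, with 200 to 399 partners 47.98%, and with 400 to 722 partners 65.61% (206 of 314). The windows 2 kb away held it in 1.811% to 2.548% across the classes of partner number. More than 1 copy stood in 0.7699% of all summit windows and in 5.096% of those with 400 to 722 partners.

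The long-range pairs were many and thin. They made up 62.49% of all bin pairs but held 42.43% of all contacts, 3856997 in sum. A single contact was behind 77.04% of them, against 50.29% of pairs under 200 kb, and 81.43% were seen in 1 column only. All 6 columns held 9600 of them, and 18188 had at least 10 contacts in sum. The median span was 585 kb, with an interquartile range of 350 to 1005 kb, in a table that ends at 2 Mb.

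The columns differed in depth and were alike in their long-range share and in how contacts fell off with span. Category 1 held 480235, 537499 and 946410 long-range contacts in replicates 1, 2 and 3, and category 2 held 305555, 993567 and 593731. The long-range share of all contacts was 42.18%, 42.98% and 41.59% in category 1, and 41.28%, 43.27% and 42.73% in category 2. These values span 41.28% to 43.27%, and the columns of both categories interleave. Contacts of 200 to 300 kb were 22.34% to 23.82% of the long-range contacts of a column, and those of 1500 to 2000 kb 6.654% to 7.43%. Where a bin pair had at least 10 contacts in any 2 columns together, its split between them scattered with 0.993 to 1.26 times the variance of pure counting, over all 15 combinations of columns. That value rests mostly on thin pairs, and some of the strongest pairs spread further, such as DPAGT1 with RNF26 at 29.19 to 88.36 contacts per 1000000 long-range contacts of a column.

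A YY1 peak at an anchor went with more contacts at every span. An anchor was taken as YY1-bound when it overlapped a YY1 peak in both libraries without doxycycline. Among all possible pairs of bins 200 to 300 kb apart, those with neither anchor bound had 1.244 contacts per 100 pairs, those with 1 bound anchor 42.97, and those with both bound 134.3. At 1500 to 2000 kb the same values were 0.08336, 2.638 and 7.048 contacts per 100 pairs. Possible pairs were counted over the full length of the chromosomes, assembly gaps included. Gap bins hold no peaks, so pairs with them fall mostly in the class with neither anchor bound. This lowers the values of that class, by an amount that was not measured.

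In relative terms, the step from no bound anchor to 1 was 34.5-fold at 200 to 300 kb and 31.6-fold at 1500 to 2000 kb. The step from 1 to both was 3.13-fold and 2.67-fold. In single columns the first step was between 26.0-fold and 45.7-fold over all spans, and the second between 2.59-fold and 3.43-fold. Thus a second bound anchor added far less, on a relative scale, than the first, in each of the 6 columns. The first step is also raised by the gap bins in the class with neither anchor bound. Because the antibody selects bound fragments, how much of either step is pull-down and how much is contact cannot be told apart in these files.

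**Figure D1:**
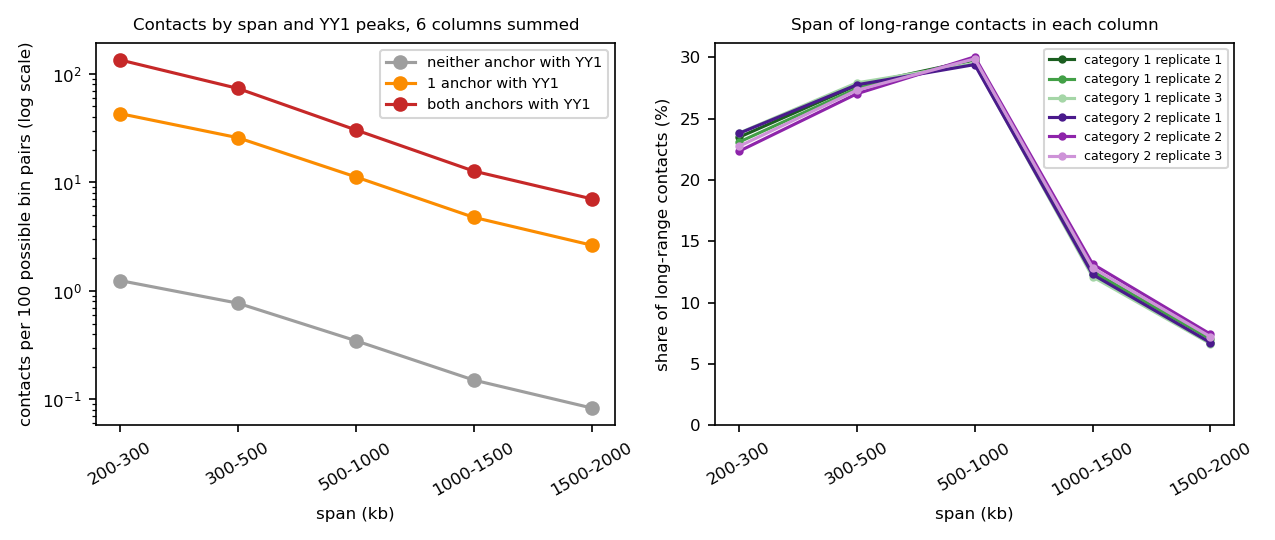
Left, contacts per 100 possible bin pairs (log axis) against span in kb, for pairs with YY1 peaks at neither, 1 or both anchors, all 6 columns summed. Right, share of each column's long-range contacts in each span class. The 3 classes on the left fall together, from 1.244, 42.97 and 134.3 to 0.08336, 2.638 and 7.048, and the 6 lines on the right lie on each other.

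Counted per pair, promoters and YY1 peaks were both more frequent at long range than below 200 kb. A promoter here is the TSS of a protein-coding gene's canonical transcript inside the 5 kb anchor. It was present at 1 or both anchors of 35.77% of long-range pairs (95% Wilson interval 35.71% to 35.83%) and of 25.83% of pairs under 200 kb (25.76% to 25.9%). YY1 was bound at 1 or both anchors of 77.92% of long-range pairs (77.87% to 77.97%) and of 66.13% of shorter ones (66.05% to 66.2%). These intervals cover counting error only, and pairs that share an anchor are not independent.

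The order turned when contacts rather than pairs were counted. Promoter pairs held 43.8% to 50.81% of the long-range contacts of a column and 46.26% to 53.98% of its shorter contacts, and were lower at long range in 6 of 6 columns. For YY1 the shares of contacts were 81.45% to 87.63% at long range and 81.8% to 87.76% below it. With each anchor counted once, a promoter was at 3.502% of long-range anchors and 3.854% of anchors of shorter pairs. YY1 was bound at 8.18% and 9.13% of them.

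The pairs with many contacts were nearly all YY1-bound and mostly at promoters. Among the 18188 long-range pairs with at least 10 contacts, 99.36% had a bound anchor, 86.24% had a promoter (85.74% to 86.74%), and 11.01% had promoters at both ends. The shorter pairs with at least 10 contacts had a bound anchor in 97.62%, a promoter in 66.69% (66.38% to 66.99%) and promoters at both ends in 6.661%. At 40 contacts or more the order of the promoter shares no longer held, with 83.31% of 737 long-range pairs (80.45% to 85.83%) and 86.24% of 10088 shorter ones (85.56% to 86.9%). These 10088 were out of 1508580 shorter pairs, and 11.82% of them had promoters at both ends. Their promoter shares were thus close to those of the 18188 long-range pairs with at least 10 contacts. A bound anchor without any promoter was found in 43.8% of all long-range pairs and in 13.73% of those with at least 10 contacts. Both anchors were bound in 7.946% of all and in 22.01% of the latter.

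**Figure D2:**
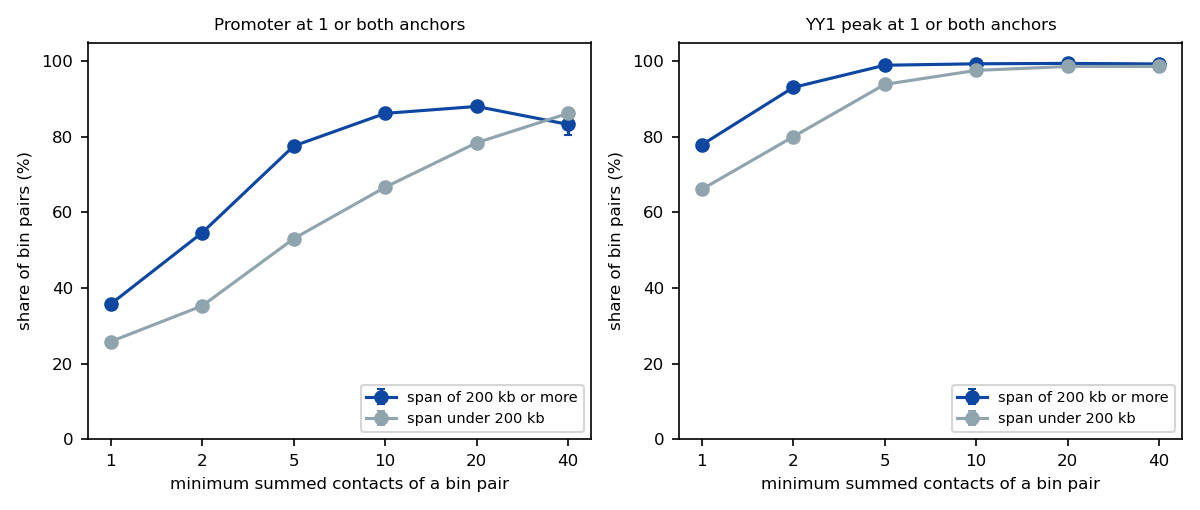
Share of bin pairs in percent with a promoter (left) or a YY1 peak (right) at 1 or both anchors, against the minimum number of summed contacts, for pairs of 200 kb or more and for shorter ones. Bars are 95% Wilson intervals, mostly smaller than the points. Promoter shares at long range rise from 35.77% to 86.24% between 1 and 10 contacts and stay above those of shorter pairs up to 20 contacts. The same minimum is stricter at long range, since 10 contacts keep 0.719% of long-range pairs and 6.22% of shorter ones.

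Long-range contacts centred on few anchors. Of 618525 bins without an SVA, 500115 (80.86%) were anchors, with a median of 4 partners, and 70661 had 1 partner. A bin can have at most 722 long-range partners within 2 Mb. An anchor with at least 100 partners is called a hub below, a line drawn after the values were seen, with 89 anchors at 100 partners and 92 at 99. The 7350 hubs (1.47% of anchors) took part in 52.29% of the long-range pairs and in 65.33% of the contacts. Per column this share was 57.05%, 72.11% and 64.56% in category 1, and 62.37%, 65.48% and 68.35% in category 2. Pairs that joined 2 hubs were 1.246% of all, so most hub pairs led to bins that were not hubs. With hubs at 1.47% of anchors, this does not say whether hubs favoured or avoided each other.

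Partner numbers were higher with YY1, both at promoters and away from them. Bins with both a promoter and YY1 had a median of 54 partners (interquartile range 15 to 145), and 35.02% of 8890 were hubs. Bins with YY1 and no promoter had a median of 17 partners, and 11.76% of 33003 were hubs. Promoters without YY1 had a median of 6 partners, with 0.4082% of 9554 at hubs, and bins with neither had a median of 3. In numbers, 6993 of the 7350 hubs were YY1-bound, 3152 held a promoter, and 3880 were bound without a promoter. Of the 318 hubs with neither, 235 had a YY1 peak in at least 1 of the 4 libraries, and 137 had H3K9me3 in a library without doxycycline.

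Peak height rose along with partner number. YY1 peaks were found at 3.074% of anchors with 1 partner and at 99.27% of those with 400 to 722 partners in the first library without doxycycline. The median fold enrichment of the strongest peak, over anchors with a peak, was 4.989 and 63.64 in these classes. The other 3 YY1 libraries gave 5.075 to 5.16 and 63.73 to 70.54. Between 1 and 24 partners the median stayed between 4.854 and 5.392 in all 4 libraries, and the rise began at 25 partners.

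OCT4, the pluripotency factor encoded by POU5F1, shared this pattern in part, while H3K9me3, the mark of silent chromatin that KRAB recruits, did not. An OCT4 peak without doxycycline was present at 4.096% of anchors with 1 partner, 61.76% of those with 200 to 399 and 59.49% of those with 400 to 722 partners. With doxycycline the shares were 2.222%, 17.23% and 15.33%, in a peak list of 23106 peaks against 50582, with 1 library each and so no test. H3K9me3 in the first library without doxycycline marked 21.77% of anchors with 1 partner, 27.34% of those with 50 to 99 and 12.77% of those with 400 to 722 partners. It marked 24.2% of all 7350 hubs, 22.28% of all anchors and 11.29% of bins with no partner. Bins were taken over the full length of each chromosome, so those with no partner include assembly gaps that no read can reach. The core motif stood in 39.3% of bins with no partner and in 66.14% of those with 1 to 4. The share of 11.29% was not corrected for this and cannot be read as a chromatin difference.

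YY1 peaks were listed at more long-range anchors with doxycycline, in longer peak lists and without a test that could pass. The share of the 500115 anchors with a YY1 peak was 10.76% and 13.57% without doxycycline and 15.07% and 19.8% with it. The means were 12.16% ± 1.988 and 17.44% ± 3.341 (SD, n = 2), a difference of 5.27 percentage points (two-sided exact permutation test, p = 0.33, the smallest that 2 against 2 libraries allow). The groups did not overlap, and the lists held 56110 and 75849 peaks without doxycycline and 81666 and 115345 with it. With the same number of peaks from each list, the difference was 0.38 percentage points. Over all 618525 bins without an SVA the shares were 8.953% and 11.35% without and 12.62% and 16.65% with doxycycline. That is a difference of 4.487 percentage points, so the shift was not particular to long-range anchors. At hubs the shares were 95.78% and 97.12% without and 97.36% and 98.34% with doxycycline (exact permutation p = 0.33). H3K9me3 covered 22.28% and 23.61% of the anchors without doxycycline and 16.54% and 22.82% with it (exact permutation p = 0.67). Over all bins the H3K9me3 shares were 20.18% and 21.33% without and 14.9% and 20.42% with doxycycline.

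The most connected anchor held the shared promoter of MRPL47, a protein of the mitochondrial ribosome, and NDUFB5, a subunit of respiratory complex I (chr3:179320001-179325000, with the TSS of the gene ENSG00000288698 in the same bin). It was joined to all 722 bins in reach, with 18638 contacts, or 0.483% of all long-range contacts. The columns held 1778, 3152 and 4300 contacts in category 1 and 1304, 4763 and 3341 in category 2, which is 37.02 to 58.64 per 10000 long-range contacts of the column. The proportion thus differed between columns, up to category 1 replicate 2 as the highest, and 529 of its pairs had at least 10 contacts. Its YY1 peaks had fold enrichments of 41.52 and 37.18 without and 29.64 and 27.33 with doxycycline, below those of several anchors with fewer contacts.

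The next promoters reached fewer bins. HACD2, an enzyme of very long-chain fatty acid synthesis, had 713 partners and 6278 contacts, with YY1 at 153.0-fold and 142.6-fold without doxycycline. SLX4IP, a partner of the SLX4 nuclease scaffold, had 710 partners and 12223 contacts, of which 1268, 1834 and 2786 were in category 1 and 965, 3158 and 2212 in category 2. FXR1, an RNA-binding protein related to FMRP, had 698 partners and 4238 contacts, and CRADD, an adaptor for caspase-2, had 690 and 6201. Partner number and contact number did not give the same order, since SLX4IP had fewer partners than HACD2 and more contacts. The other named promoters were SCYL3 with 666 partners, AKT1S1/TBC1D17 with 643, LRRC41/UQCRH and BLOC1S5 with 632 each, and STK40 with 627. The 10 promoters together held 1.8% of all long-range contacts, had YY1 peaks in all 4 libraries and H3K9me3 peaks in none of the 5.

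The profiles of these hubs were uneven along the chromosome. CRADD had 2010 contacts towards lower and 4191 towards higher coordinates, and SCYL3 had 1470 and 2639, while MRPL47/NDUFB5 had 9692 and 8946. From 1500 kb on lay 15.62% of the FXR1 contacts, 9.003% of those of MRPL47/NDUFB5 and 5.636% of those of AKT1S1/TBC1D17. At 200 to 300 kb, bins with a YY1 peak had a higher median count than bins without one at 6 of the 10 anchors, for example 81 (n = 8) against 27 (n = 32) at AKT1S1/TBC1D17 and 56 (n = 7) against 12 (n = 33) at STK40. The order was the other way at 3 anchors, with 99 (n = 9) against 112 (n = 31) at MRPL47/NDUFB5, 23 (n = 5) against 30 (n = 35) at CRADD and 20 (n = 3) against 21 (n = 37) at LRRC41/UQCRH, and BLOC1S5 had no such bin with YY1. A YY1 peak in the partner bin thus did not go with more contacts at each of these anchors.

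**Figure D3:**
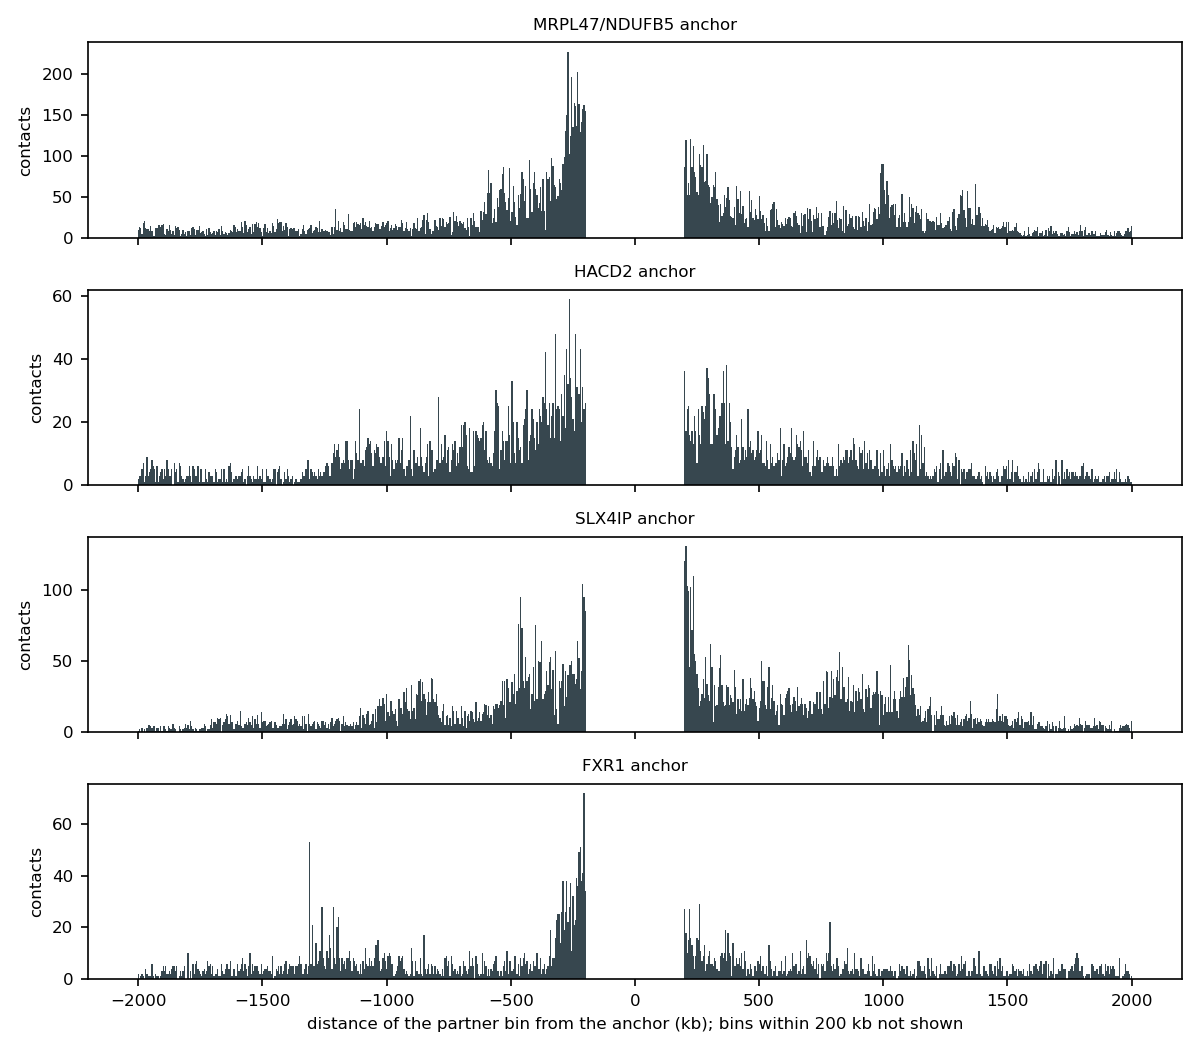
Contacts of the 4 most connected promoter anchors with each 5 kb bin, against distance in kb, all 6 columns summed, with each panel on its own scale. The MRPL47/NDUFB5 panel is highest and keeps a local peak near 1000 kb, where the TTC14 promoter lies at 995 kb.

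Some hubs held no canonical TSS of a protein-coding gene, and other start sites of such genes were not looked at. The strongest lay in an intron of KIF26B, a kinesin family gene (chr1:245835001-245840000), with the TSS of the long noncoding RNA ENSG00000231612 in the same bin. This hub was 519.2 kb from the KIF26B TSS, with 677 partners and 9588 contacts. Its columns held 894, 1656 and 2540 contacts in category 1 and 619, 2274 and 1605 in category 2, and YY1 was at 121.7-fold and 75.88-fold without doxycycline. It was joined to the KIF26B promoter by 180 contacts over 520 kb. A second lay 2.9 kb from the TSS of CPEB4, an RNA-binding regulator of translation (chr5:173310001-173315000), with 614 partners, and another 75.5 kb from CHD6, a chromatin remodeller, with 604. The others were at the TSS of the antisense RNA ENTPD3-AS1 on chromosome 3, with 591 partners, and in NR3C1, the glucocorticoid receptor gene, with 560. None of these 5 had H3K9me3 in a library without doxycycline, and the CHD6 anchor alone had OCT4, at 6.972-fold.

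The promoter pairs with the most contacts are set here beside the broad reach of their hubs. They were picked by their counts, so values above a local reference are partly due to that choice. As a local reference, the median contacts of an anchor with the 20 bins around its partner are given. MFN1, a mitochondrial fusion GTPase, and MRPL47/NDUFB5 were joined over 255 kb by 196 contacts, 25, 25 and 59 in category 1 and 9, 46 and 32 in category 2. MFN1 had a local median of 10.5 contacts around MRPL47/NDUFB5, while MRPL47/NDUFB5 had one of 135.5 around MFN1. The pair thus stood far above the reach of MFN1 and less so above that of MRPL47/NDUFB5. MFN1 was no local peak of MRPL47/NDUFB5, which had 227 and 202 contacts with bins without a promoter 270 and 230 kb away. The pair of DPAGT1, which starts protein N-glycosylation, and RNF26, a ubiquitin ligase of the endoplasmic reticulum, stood above both of its local medians by more alike amounts. It had 186 contacts over 235 kb, 30, 26 and 34 in category 1 and 27, 29 and 40 in category 2, against local medians of 37 and 23.

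The local medians of other pairs were mostly uneven between the sides. USP31, a deubiquitinase gene, and COG7, a Golgi tether subunit, had 143 contacts over 300 kb against a local median of 64 from the USP31 side and 1 from the COG7 side. SLX4IP and JAG1, the Notch ligand, had 110 contacts over 235 kb against 50 and 1, while SLX4IP had 120 and 131 with bins 200 and 205 kb away on that side. CHTOP, an mRNA export factor, and RPS27, a ribosomal protein, had 95 contacts over 355 kb against 14 and 25.5. The pair of MRPL47/NDUFB5 and TTC14 had the largest span of the 10, 995 kb, with 90 contacts against 38 and 3. Its columns held 7, 14 and 16 contacts in category 1 and 5, 22 and 26 in category 2. In 9 of the 10 pairs both anchors had YY1 peaks, and at the tenth, NXPH3 and KAT7 with 87 contacts over 215 kb, the NXPH3 anchor had none.

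**Figure D4:**
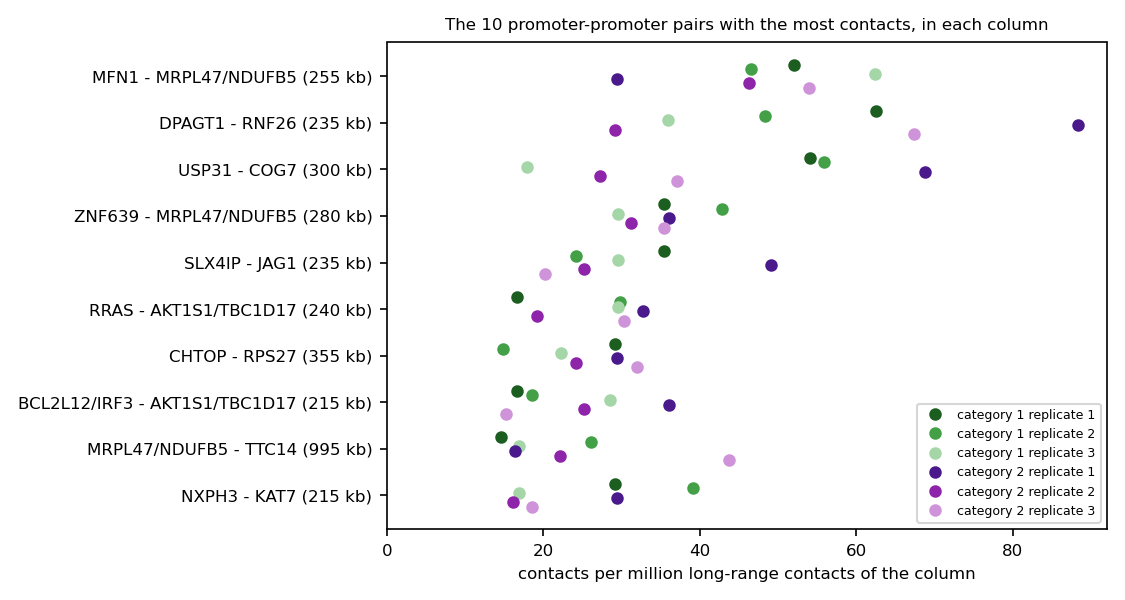
Contacts per 1000000 long-range contacts of the column, for the 10 promoter pairs with the most contacts, 1 point per column and colours by category and replicate. The points of both categories overlap in each pair, and DPAGT1 with RNF26 spans 29.19 to 88.36.

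The longest promoter pairs seen in all 6 columns were thin. NFATC2IP and PRR14 were joined over 1700 kb by 10 contacts, 2, 2 and 2 in category 1 and 1, 2 and 1 in category 2. LAT and PRR14 had 8 contacts over 1665 kb, PLK3 and LRRC41/UQCRH 11 over 1500 kb, and AKT1S1/TBC1D17 and VSIG10L 8 over 1465 kb. The bins around the partner had a median of 3 to 5 contacts with PRR14, LRRC41/UQCRH and AKT1S1/TBC1D17, which were hubs in themselves.

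Gene groups differed in how far their promoters were connected. The median protein-coding gene had 12 partners, and 18.6% of 20136 were at hubs. Of 14 chromatin architecture genes 9 were at hubs, with a median of 160.5 partners. They included STAG2 and STAG1, subunits of cohesin, with 415 and 354 partners, and YY1 itself with 398. Of 86 cytosolic ribosomal protein genes 44 were at hubs, with a median of 106.5 and the highest values at RPS27 with 475, RPL13A with 420 and RPL12 with 348. YY1 was bound at 90.7% of the ribosomal promoters and 50.29% of all.

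Developmental genes stood on both sides of the median of all genes. The germ layer factors had a median of 6 partners, with 3 of 30 at hubs: TFAP2A, a neural crest and surface ectoderm factor, with 430, MEIS1 with 256 and IRX3 with 173. HOX genes had a median of 14, with 5 of 39 at hubs, led by HOXA2 with 327. Pluripotency genes had a median of 16.5, with 6 of 20 at hubs. L1TD1, an RNA-binding protein of stem cells, had 334 partners, SALL4 had 316 and SOX2 292, while POU5F1 had 18 and NANOG 15.

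Clustered families also had contacts among themselves. Zinc finger genes of chromosome 19 had a median of 37 partners, with 80 of 246 at hubs, led by ZNF175 with 568, ZNF649 with 562 and ZNF614 with 498. Their promoters were joined to each other by 1037 long-range pairs with 3409 contacts, 781 to 975 per 1000000 long-range contacts in the 6 columns, and ZNF649 and ZNF766 had the most, 47 over 365 kb. Clustered protocadherins, the neuronal recognition receptors of chromosome 5, had 186 such pairs with 450 contacts, led by PCDHB5 and PCDHGC3 with 14 over 345 kb. Replication-dependent histone genes had 81 such pairs with 133 contacts, with a median of 24 partners and 11 of 64 at hubs. Neighbouring members can share an anchor, as H2AC6 and H2BC4 did with 303 partners. Pairs among other promoters of the same regions were not counted, so the numbers of pairs within a family cannot be read as a trait of that family. Chromosome 19 had the most long-range contacts per length of all chromosomes, 2766 per Mb.

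Single developmental genes had their highest counts with bins of different kinds. SOX2 had 12 contacts with a bin 245 kb away in LINC01206 that had YY1 and 349 partners of its own. TFAP2A had 15 with a YY1-bound bin in OFCC1 605 kb away. IRX3 had 14 contacts over 585 kb with the shared promoter of FTO and RPGRIP1L, 1, 3 and 1 in category 1 and 1, 4 and 4 in category 2. SALL4 had 37 contacts with a bin 210 kb away that lacked a YY1 peak in at least 1 of the 2 libraries without doxycycline.

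Expression was higher at more connected promoters. The median level without doxycycline was 0.2534 TPM over 3754 genes with 1 to 4 partners, 4.07 TPM with 10 to 24, 24.19 TPM with 100 to 199, 32.52 TPM with 200 to 399 and 25.53 TPM with 400 to 722 partners. Genes with a mean of at least 1 TPM were 36.49% of the first class and 96.64% of the 298 genes with 400 to 722 partners. Hub genes themselves varied widely, for example with SLX4IP at 2.63 ± 0.205 TPM and SCYL3 at 6.34 ± 0.0920 TPM beside FXR1 at 1213 ± 46.1 TPM and UQCRH at 1585 ± 22.4 TPM (SD, n = 3).

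Most genes tested had their TSS in a long-range anchor, so the counts below are largely those of all genes. Of 20163 protein-coding genes 19163 had their TSS in a long-range anchor, and 14837 of these passed the filter on low counts. With edgeR's quasi-likelihood test at an adjusted p under 0.05, 1393 (9.389%) were higher and 1283 (8.647%) lower with doxycycline. Over all 16370 genes tested, 8.97% were higher and 8.49% lower, 17.5% in either direction. Among the 349 tested protein-coding genes without a long-range pair, 6.017% were higher and 10.32% lower. At hubs 8.075% of 3616 genes were higher and 9.458% lower, and their median log2 fold change was -0.02, against -0.0025 over all genes tested. The counts depended on single libraries: without the second library of either condition 639 were higher, and 716 (without no doxycycline replicate 2) or 653 (without doxycycline replicate 2) lower. Without no doxycycline replicate 3 they were 806 and 823, and without doxycycline replicate 1 they were 757 and 870.

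Of 31 genes at the named hubs and pairs, including KIF26B, 30 were tested, 5 rose and 1 fell, against 8.97% higher and 8.49% lower over all genes tested. NDUFB5 was at 878, 886 and 965 TPM without and 1012, 1085 and 1028 TPM with doxycycline, with no overlap (log2 fold change 0.24, SE 0.058, edgeR adjusted p = 0.022). MRPL47, which starts 156 bases away, was at 378, 381 and 419 TPM without and 423, 426 and 418 TPM with doxycycline, and did not pass (log2 fold change 0.15, edgeR adjusted p = 0.11). RRAS, a small GTPase, rose from 20.5, 18.2 and 17.8 TPM to 29.9, 29.0 and 27.1 TPM (log2 fold change 0.67, SE 0.089, edgeR adjusted p = 0.0012). KIF26B fell from 3.06, 3.62 and 3.29 TPM to 2.33, 1.90 and 2.16 TPM (log2 fold change -0.75, SE 0.067, edgeR adjusted p = 0.00012). RNF26, COG7 and KAT7 rose by 0.23, 0.28 and 0.22 on the log2 scale, and like NDUFB5 they no longer passed when 1 of several libraries was left out.

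The genes with the largest changes had between 6 and 114 partners. The 5 largest rises were ZNF10, SFXN3, IL23R, CSF3 and FOXD1, with 23, 34, 6, 7 and 14 partners, and the 5 largest falls CILP, CRYAA, ABCC2, INSYN2B and CHI3L2, with 12, 11, 8, 114 and 10. ZNF10 went from 7.35, 7.09 and 7.76 TPM to 1523, 1499 and 1958 TPM (log2 fold change 5.19, SE 0.12, edgeR adjusted p = 5.6e-08). The KRAB domain of dCas9-KRAB fusions is commonly that of ZNF10, and reads of such a transgene cannot be told apart here from reads of the gene. CILP, a cartilage matrix protein, fell from 9.11, 11.4 and 7.21 TPM to 0.404, 0.342 and 0.339 TPM (log2 fold change -4.62, SE 0.18, edgeR adjusted p = 8.56e-07). CSF3, the cytokine G-CSF, rose from 0.948, 0.981 and 0.806 TPM to 11.8, 10.0 and 11.4 TPM (log2 fold change 3.65, SE 0.13, edgeR adjusted p = 5.96e-07). In these genes the groups were far apart, which follows from their choice as the largest changes without overlap between groups.

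Of the gene groups, to be read against 8.97% higher and 8.49% lower over all genes tested, 8 of 18 tested pluripotency genes fell and none rose, at a median log2 fold change of -0.21. L1TD1, the most connected, fell from 277, 287 and 253 TPM to 167, 162 and 187 TPM (log2 fold change -0.62, edgeR adjusted p = 0.00026), and the Nodal co-receptor TDGF1, with 7 partners, fell by 1.13 on the log2 scale. Of 23 tested germ layer factors 7 rose and none fell, among them IRX5 with 48 partners by 1.82, WT1 with 5 by 1.51 and GATA6 with 2 by 1.46. Of 14 chromatin architecture genes 4 fell, CTCF, RAD21, PDS5B and STAG1, by 0.20 to 0.34, and none rose. Replication-dependent histones had 9 that fell and 1 that rose of 39 tested. Zinc fingers of chromosome 19 had 37 that fell (15.42%) and 4 that rose (1.667%) of 240. Their share called in either direction, 17.08%, was near the 17.5% of all genes, but the calls leaned towards falls. Their median log2 fold change was -0.14, with 79.17% of the tested members below zero. Of 83 tested ribosomal genes 3 were called, and these were paralogs, RPS27L and RPL3L, which rose, and RPL39L, which fell. Of 47 tested protocadherins 1 fell, and of 16 tested HOX genes 1 rose, HOXB2.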

How the data were processed

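For HiChIP, the authors deposited 1 table with raw whole-number contact counts per pair of 5 kb bins (hg19), 3 replicates in each of 2 unnamed categories. The software and filters behind it are not given in the sources used here, and the sources give no link from category to condition, so no count model was fitted. The other 10 per-sample columns, 6 of q-values and 4 of coverage, were not used. For ChIP-seq, the authors trimmed reads, aligned them to hg19 with BWA, removed duplicates and called peaks in each library at a 5% FDR. The deposited peak lists give fold enrichment over background as a ratio, and p- and q-values as −log10. The lists give no read depth. For RNA-seq, the authors deposited kallisto estimated counts and TPM per transcript.

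A bin held a feature when they shared at least 1 bp. TSSs were those of canonical transcripts in GENCODE v44lift37 (gene 5′ end where none was marked). Estimated counts were summed per gene, rounded (95.85% to 95.96% of each library matched a gene) and tested in edgeR 4.0.16 (under R 4.3.3) by its quasi-likelihood functions glmQLFit and glmQLFTest after filterByExpr and TMM, with Benjamini-Hochberg adjustment over all genes tested and a threshold of 0.05. DESeq2 1.42.0 was an alternative. Peak shares were compared over libraries with two-sided exact permutation tests. Python 3.11.15, numpy 2.4.6, pandas 2.3.3, scipy 1.17.1, matplotlib 3.10.9 and samtools 1.23.1 were used. The scripts were tested on simulated data. Wilson intervals (95%) cover counting error only, since bin pairs share anchors.

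Named genes were those at the 10 most connected promoter anchors (1 per 50 kb), the 10 promoter pairs with the most contacts, the 5 longest promoter pairs seen in every column (1 of them, and 1 marker gene, are not reported here), the 5 largest rises and falls among called genes with at least 1 CPM and no overlap between groups, and the 3 most connected of each gene list. Further list members were named after their values were seen, as were the hubs without a promoter and KIF26B. The members, lists and thresholds were chosen with earlier results of these data known. Alternatives are given under the dependence on processing.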

Additional observations from a re-analysis of the deposited data

How the results depend on the processing

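Most values are fixed by where the lines are drawn. The number of long-range bin pairs was 1463953 at a span of at least 500 kb, 638010 at 1 Mb, 9600 with a count in each column and 18188 with at least 10 counts. The share with a promoter at 1 or both anchors was 46.39% with any annotated gene, 42.5% with a TSS within 2.5 kb of the anchor, 37.94% at 500 kb, 39.72% at 1 Mb, 86.16% with a count in each column and 86.24% with at least 10 counts, and for both anchors 5.599%, 4.698%, 2.211%, 2.264%, 11.74% and 11.01% in that order. With the gene 5′ end in place of the canonical TSS, chosen after seeing the data, these shares were 33.53% and 1.939%. Hubs numbered 24 with at least 10 counts, 2983 with neighbouring partner bins joined and 3233 at 500 kb, and the MRPL47/NDUFB5 anchor kept 529 and 602 partners under the first and last, or 2 joined stretches. At 500 kb the columns held 234365, 265804 and 456700 contacts in category 1 and 148038, 502996 and 296507 in category 2. No chromosome held over 15% of the contacts summed over the 6 columns, so leaving one out was not run. Chromosome 1 held 14.84% of the sum and up to 15.3% in a single column.

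The share of anchors with a YY1 peak was, for the libraries without doxycycline 1 and 2 and with doxycycline 1 and 2, 8.439%, 10.48%, 12.46% and 15.92% at a −log10 q of at least 5. It was 18.33%, 23.32%, 25.45% and 32.88% with anchors extended by 2.5 kb, and 29.83%, 31.95%, 34.9% and 40.14% for anchors of pairs with at least 10 counts. With equal peak numbers it was 10.66%, 11.12% and 11.05% in the last 3, and 10.76% in the first. The difference between conditions was 4.318 to 6.231 percentage points without 1 replicate, and in the replicate block it was 5.274 (exact p = 0.5).

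Genes at long-range anchors that were higher numbered 639 to 1601 when 1 RNA-seq library was left out, and those that were lower 653 to 1469. They were 300 and 266 for anchors of pairs with at least 10 counts. DESeq2, its size factors, no filter, at least 10 counts in every sample and a span of 500 kb kept both counts within 1.5 times. Deviations of log CPM from the group mean correlated between same-numbered RNA-seq libraries at 0.13, 0.080 and -0.00094. The numbers thus do not pair them in all replicates, and the replicate block gave 1609 and 1510. Of the named genes, 21 were called, and of their alternative values 200 still passed and 26 did not, each of the latter with 1 library left out. No named gene changed direction among those called. Depth limits single bin pairs most, since 77.04% rest on 1 contact, and the RNA-seq library with 14683468 counts is the thinnest.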

Other observations

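Among long-range bin pairs, those with the most contacts were not at genes, while pairs under 200 kb reached up to 2122 contacts. On chromosome 10, the bins chr10:42385001-42390000 and chr10:42595001-42600000 were joined over 210 kb by 927 contacts, 165, 148 and 173 in category 1 and 140, 213 and 88 in category 2. The pair of chr10:42390001-42395000 with the same second bin had 731 contacts, and 2 further pairs there had 389 and 209. A pair of the MRPL47/NDUFB5 anchor with a bin in ZNF639 lay between the last of these, with 227. What lies behind the high counts on chromosome 10 was not tested. No annotated gene overlaps these chromosome 10 bins, and the nearest protein-coding TSS, that of ZNF33B, is 536.5 kb from the second bin. Both bins of the pair with 927 contacts had peaks in all 11 ChIP-seq libraries. In the first libraries without doxycycline, YY1 was at 10.61-fold and 8.356-fold, OCT4 at 12.38-fold and 8.452-fold and H3K9me3 at 3.364-fold and 8.65-fold. The 10 named promoter hubs, in contrast, had no H3K9me3 peak, though 24.2% and 24.61% of all 7350 hubs had one in the libraries without doxycycline.

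Chromosomes differed in long-range contacts per length. Chromosome 19 had 2766 contacts per Mb, chromosome 1 had 2296, chromosome 17 had 2057 and chromosome 20 had 2036, while chromosome 13 had 492 and chromosome 4 had 502. Chromosome Y had 4 contacts in all. Full chromosome lengths were used, gaps included, and 91.84% of bins were anchors on chromosome 19 but 62.07% on chromosome 13. The values were not corrected for chromosome copy number. The hubs followed a similar order, with 534 per 100 Mb on chromosome 19, 392 on chromosome 1 and 379 on chromosome 12. Over the columns, chromosome 1 held 14.61% to 15.3% of the long-range contacts and chromosome 19 held 3.804% to 4.77%.

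Another strong pair without a promoter at one end joined AKT1S1/TBC1D17 to a bin 255 kb away on chromosome 19 (chr19:50635001-50640000) by 169 contacts, 21, 33 and 30 in category 1 and 7, 54 and 24 in category 2. That bin overlapped a long noncoding RNA, had YY1 at 10.31-fold, and carried H3K9me3 at 15.59-fold and 11.18-fold without doxycycline, unlike the 10 promoter hubs.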
